A study of Mus musculus with 6 samples.

Results

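Interleukin-1 beta, its signalling receptor, the lipopolysaccharide co-receptor CD14, the cytokine feedback inhibitor SOCS3 and the neutrophil alarmins S100A8 and S100A9 were followed in mouse hippocampus after middle cerebral artery occlusion. The genes were chosen by symbol, as the rows of the authors' deposited table named Il1b, Il1r1, Cd14, Socs3, S100a8 and S100a9, and all 6 were found among its 637 genes. The ischemia samples were hippocampus of wild-type C57BL/6 mice, 56 days old, after focal cerebral ischemia by middle cerebral artery occlusion, and the sham samples were hippocampus of such mice after a sham operation. Both groups held 3 samples and both are titled 2 h. The treatment notes give this as the length of the ischemic treatment and no time from its end to sampling. No label states that a group's 3 samples are 3 animals, and the p-values then reflect variation among samples that may be technical. The occlusion blocks an artery that supplies much of the forebrain, and the labels do not say how far the hippocampus itself was without flow.

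Interleukin-1 beta is a cytokine made as a precursor by activated microglia and macrophages and cleaved by the inflammasome. It binds the type I receptor encoded by Il1r1 and switches on NF-kappaB and MAP kinases, which in turn raise chemokines and adhesion molecules. CD14 hands lipopolysaccharide and some endogenous ligands to Toll-like receptor 4, SOCS3 blocks STAT3 signalling from gp130 cytokine receptors, and S100A8 and S100A9 form the calcium-binding heterodimer calprotectin that neutrophils carry in their cytosol.

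The authors' deposited table gives for each gene 1 mean normalised read count per group, a log2 fold change without a pseudocount, a p-value and a Benjamini-Hochberg adjusted p-value. Its columns are headed M2 and S2 and were taken to be MCAO and sham by their first letters, a reading on which all directions below depend. It lists called genes alone: 637 of an inferred 28319 tested, or 2.25%, with 415 higher (1.47%) and 222 lower (0.784%) in ischemia. At an adjusted p of 0.01 the share is 1.27%, and 2 of the 6 genes, Il1b and Socs3, pass. That all 6 genes were called is therefore fixed by their presence in the table and is no finding. Since each mean averages whole reads scaled by the size factors of 3 libraries, many means could be split back into the reads of each library. The libraries were lettered A to C within a group by rising size factor (0.837 to 1.205 over all 6), and a letter stands for no replicate number of the labels. For 3 of the 6 genes 1 separation alone returned both group means. Cd14 and Socs3 had 2 possible separations in ischemia, and Il1r1 had 3 in ischemia and 2 in sham; the one with libraries closest together is given first and called the most even. Total depth is unknown, since size factors are relative. The markers that define hippocampus could not be checked in a table of called genes.

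Sequences of 250 bases before the annotated transcript start are shown for the 4 risen genes that the RefSeq promoter table holds, because these genes rose together and their promoters can be set side by side. They are 5′ to 3′ on the gene's strand, in build GRCm38.p6: Il1b at chr2:129371140-129371389 on the minus strand, S100a8 at chr3:90668821-90669070 on the plus strand, S100a9 at chr3:90695722-90695971 on the minus strand and Socs3 at chr11:117969367-117969616 on the minus strand. Capitals mark a TATA box (TATAAA) in Il1b and S100a8, and in Socs3 a STAT motif (TTCNNNGAA) followed by a kappaB motif.
Il1b: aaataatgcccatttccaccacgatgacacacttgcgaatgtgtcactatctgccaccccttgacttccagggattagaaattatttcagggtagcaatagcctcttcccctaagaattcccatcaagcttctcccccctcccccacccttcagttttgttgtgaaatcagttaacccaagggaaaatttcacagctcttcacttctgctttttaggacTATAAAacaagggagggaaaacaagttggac
S100a8: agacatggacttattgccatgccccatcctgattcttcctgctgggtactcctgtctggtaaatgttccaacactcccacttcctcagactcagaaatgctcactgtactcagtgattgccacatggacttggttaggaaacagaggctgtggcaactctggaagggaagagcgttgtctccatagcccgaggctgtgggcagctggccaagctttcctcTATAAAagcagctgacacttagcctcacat
S100a9: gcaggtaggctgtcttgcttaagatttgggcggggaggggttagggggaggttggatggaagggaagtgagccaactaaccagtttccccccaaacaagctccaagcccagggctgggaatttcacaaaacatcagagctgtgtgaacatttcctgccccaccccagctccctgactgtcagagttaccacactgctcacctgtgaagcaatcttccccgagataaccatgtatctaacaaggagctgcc
Socs3: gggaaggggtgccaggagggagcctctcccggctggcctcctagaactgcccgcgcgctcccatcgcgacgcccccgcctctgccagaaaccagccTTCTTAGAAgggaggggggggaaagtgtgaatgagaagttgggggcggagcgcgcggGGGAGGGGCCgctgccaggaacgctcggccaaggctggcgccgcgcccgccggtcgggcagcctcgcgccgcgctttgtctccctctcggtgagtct

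Motifs of 6 kinds were searched on both strands, and none of the matches overlapped another. TATAAA lay at bases -31 to -26 from the start of Il1b and at -30 to -25 from that of S100a8, and 12.4% of the 32851 promoters of the table hold it in this window. The STAT motif lay at -154 to -146 in Socs3, and 7.02% of promoters hold it. The loose kappaB motif lay at -97 to -88 in Socs3, and 45.8% of promoters hold it. It also lay in 1 of the 2 annotated promoters of Il1r1, on the opposite strand at -232 to -223, where a CCAAT box (33.8% of promoters) lay on the opposite strand at -52 to -48. The AP-1 motif (TGANTCA) and the cyclic AMP response element core (TGACGTCA), held by 6.75% and 1.55% of promoters, were in 0 of the 6 windows of these genes. A match of letters is a description of the sequence and shows no binding.

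Il1b, the ligand, rose, and by the group means it had the lowest level per kilobase of the 6 genes in both groups. Its library range overlapped that of the next gene, Il1r1 in ischemia and S100a9 in sham. The authors' deposited table gives it 56.2 normalised reads for ischemia and 3.25 for sham, a log2 fold change of 4.11 (17.3-fold, adjusted p = 0.00339), the 18th largest rise of the 637 genes. The ischemia mean separated into 59.8, 83.1 and 25.7 normalised reads in libraries A, B and C, and the sham mean into 8.01, 0.903 and 0.833. Every ischemia library was above every sham library, and library C was the lowest of its group. These values rest on 50, 73 and 31 reads in ischemia and on 7, 1 and 1 reads in sham. The 95% exact Poisson interval is 2.81 to 14.4 for the 7 reads of sham library A and 0.0253 to 5.57 for the 1 read of each other sham library. Summed over libraries, 154 reads against 9 gave a ratio of 18.6 per unit of size factor, with an exact 95% interval of 9.57 to 41.6 that covers counting error alone. Without sham library A, which holds 82.2% of the summed sham level, the log2 fold change was 6.02. In RNA from whole tissue, more cells of a type and more RNA per cell cannot be told apart.

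Il1r1, the receptor that carries the signal of both interleukin-1 alpha and beta, was the member that fell. The authors' deposited table gives it 428 normalised reads for ischemia and 737 for sham, a log2 fold change of -0.78 (1.72-fold lower, adjusted p = 0.0333). In the most even separations the ischemia libraries held 455, 338 and 491 normalised reads and the sham libraries 610, 876 and 725, so that every ischemia library lay below every sham library. Among the 6 combinations of possible separations this held in 1, and in the other 5 the groups overlapped (two-sided exact permutation p between 0.10 and 0.50). The means alone do not single out 1 separation, so they do not settle whether the groups overlapped for Il1r1. The authors' p-value also reflects the spread among samples, but it was not used to choose among the separations. Some of them may therefore be incompatible with it. With another separation the log2 fold change ranged from -1.82 without ischemia library C to -0.14 without sham library A, and it stayed below 0 in each of the 15 omissions of a library.

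Cd14, the co-receptor, had by the group means the highest level per kilobase of the 6 genes in ischemia, and it rose. Its means in the authors' deposited table are 807 normalised reads for ischemia and 119.5 for sham, a log2 fold change of 2.76 (6.75-fold, adjusted p = 0.0235). Its ischemia libraries held 710, 1230 and 481 normalised reads in the most even separation, or 756, 1561 and 105 in the other, against 104, 144 and 111 in sham. In the first the groups were apart, and in the second ischemia library C lay inside the sham range (two-sided exact permutation p = 0.10 and 0.30). Under the second separation the log2 fold change without ischemia library B was 1.85.

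Socs3, which STAT3 induces and whose product then blocks the receptor, had the smallest p-value of the 6 genes. Its means in the authors' deposited table are 542 normalised reads for ischemia and 80.001 for sham, a log2 fold change of 2.76 (6.77-fold, adjusted p = 6.23e-34). The ischemia libraries held 526, 592 and 507 normalised reads in the most even separation, or 481, 261 and 884 in the other, against 103, 91.2 and 45.8 in sham. In both, every ischemia library was above every sham library. The folds of Socs3, Cd14 and S100a8 by the authors' deposited table (6.77, 6.75 and 6.78) were nearly equal while their adjusted p-values were 6.23e-34, 0.0235 and 0.0274. In the most even separation the highest ischemia library exceeded the lowest by 1.17-fold for Socs3 and by 2.55-fold for Cd14, and by 3.26-fold for S100a8, which has 1 separation. In the other separation it was 3.39-fold for Socs3 and 14.9-fold for Cd14, so the means alone do not settle the order of these spreads. The adjusted p-values also reflect the spread among samples, but they were not used to choose between the separations.

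S100a8 and S100a9, neighbouring genes with 0 annotated genes between them in RefSeq GRCm38.p6, both rose. For S100a8 the authors' deposited table gives 71.1 normalised reads for ischemia and 10.5 for sham, a log2 fold change of 2.76 (adjusted p = 0.0274). Its libraries held 31.1, 80.9 and 101 normalised reads in ischemia and 18.3, 8.13 and 4.9997 in sham, from 26, 71 and 122 reads and from 16, 9 and 6 reads. For S100a9 the authors' deposited table gives 59.6 normalised reads for ischemia and 4.64 for sham, a log2 fold change of 3.68 (12.9-fold, adjusted p = 0.0340). Its libraries held 26.3, 94.5 and 58.1 normalised reads in ischemia and 1.14, 3.61 and 9.17 in sham, from 22, 83 and 70 reads and from 1, 4 and 11 reads. Both genes were lowest in ischemia library A and both groups were apart. The sham libraries did not keep 1 order: library A was the highest for S100a8 and the lowest for S100a9. The ratio of summed reads per unit of size factor was 7.70 for S100a8 (exact 95% interval 5.27 to 11.6) and 11.9 for S100a9 (7.14 to 21.3), counting error alone. Omitting sham library A moved the log2 fold change of S100a8 to 3.44, and omitting sham library C moved that of S100a9 to 4.65.

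**Figure D1:**
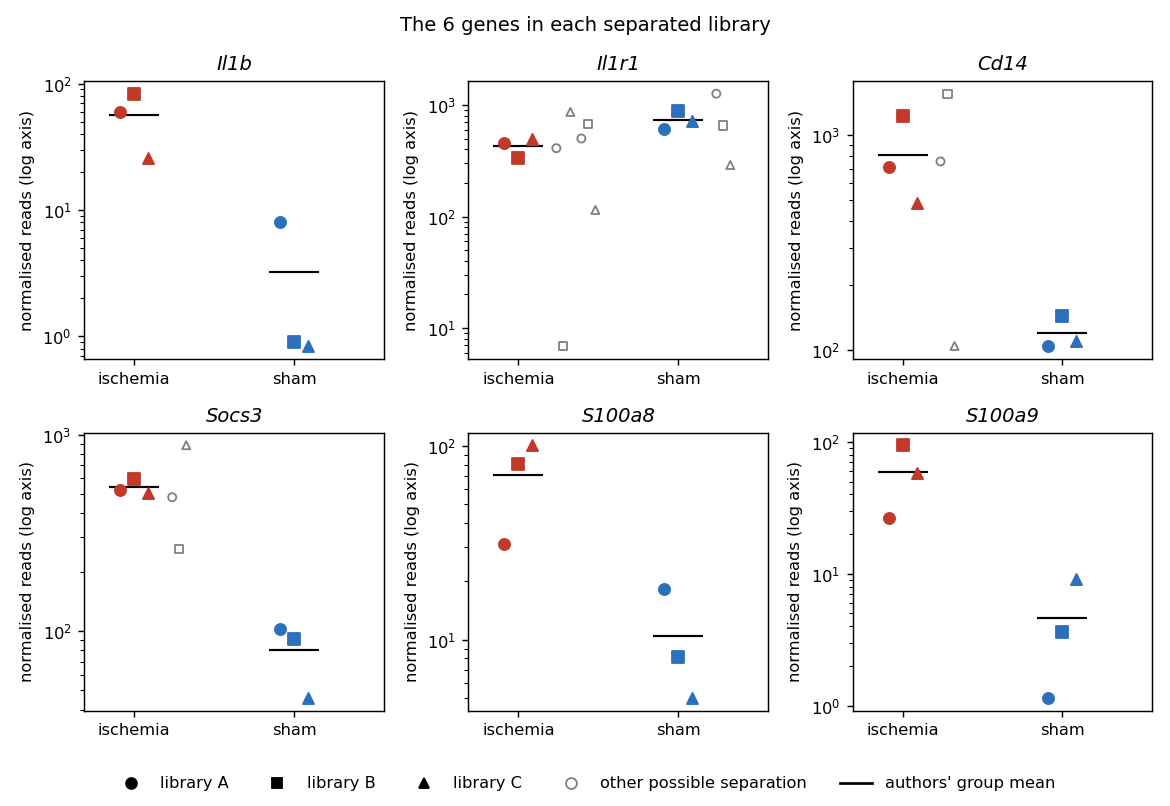
Normalised reads (log axis) of each gene in the libraries separated from the authors' group means, ischemia left of sham; circles, squares and triangles are libraries A, B and C, lines are the authors' means, and small open symbols are other separations that return the same mean. Il1b, Socs3, S100a8 and S100a9 lie higher in every ischemia library than in any sham library. For Cd14 1 other separation, and for Il1r1 several, let the groups overlap. These genes were called on the same libraries, so groups apart are no separate finding.

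By library, exact permutation tests on log2(normalised reads + 1) gave a two-sided p = 0.10 for Il1b, Socs3, S100a8 and S100a9, and for Cd14 and Il1r1 in their most even separations. With 3 libraries against 3 there are 20 divisions, and 0.10 is the smallest p they allow. These tests could therefore not pass 0.05 for any gene. The authors' test on these same libraries had already called the 6 genes, so groups apart are no separate finding. The share with groups apart over all called genes was not computed. The differences of the mean log2 values were 4.03 for Il1b, -0.78 for Il1r1, 2.65 for Cd14, 2.82 for Socs3, 2.66 for S100a8 and 3.53 for S100a9. The median log2 fold change of the 6 genes was 2.76, beside 1.07 over all genes called higher and -0.68 over all called lower in the authors' deposited table. The median of the 6 mixes risen genes with Il1r1, which fell, whereas the others are split by direction. The 6 were chosen with earlier results of these data known, so the larger median is no finding.

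**Figure D2:**
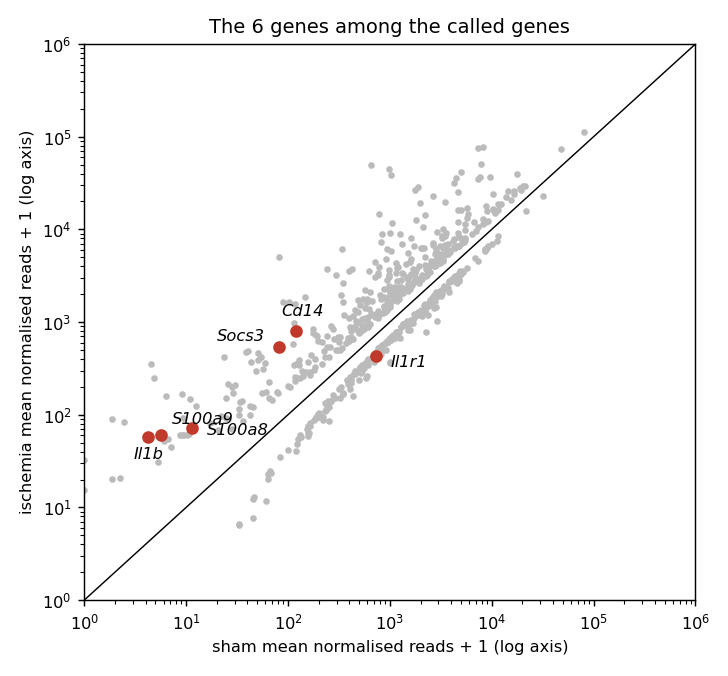
Mean normalised reads plus 1 in ischemia (vertical, log axis) against sham (horizontal, log axis) for the 637 called genes (grey) and the 6 genes (red); the line marks equal means. Il1b, S100a9 and S100a8 lie at the low end above the line with sham means of 3.25, 4.64 and 10.5, Socs3 and Cd14 lie above it at sham means of 80.001 and 119.5, and Il1r1 lies below it.

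Per length, the order of the genes differed between the groups. Per kilobase of merged coding-transcript exons (GENCODE M21), the level in ischemia was 492 normalised reads for Cd14, 212 for Socs3, 146 for S100a8, 114 for S100a9, 70.1 for Il1r1 and 41.5 for Il1b. In sham it was 121 for Il1r1, 72.8 for Cd14, 31.3 for Socs3, 21.6 for S100a8, 8.89 for S100a9 and 2.40 for Il1b. Il1r1 was thus the first of the 6 in sham and the fifth in ischemia, and Il1b was the last in both. In the most even separations neighbours were apart in their library ranges for Cd14 and Socs3 in ischemia (293 to 750 against 199 to 232 per kilobase), and for Il1r1 and Cd14 in sham (99.7 to 143 against 63.4 to 87.5) and Cd14 and Socs3 in sham (63.4 to 87.5 against 18.0 to 40.3). All other neighbours overlapped, and under the other separations Cd14 overlapped Socs3 in ischemia and Il1r1 overlapped Cd14 in sham. Exons of 0 of the 6 genes overlap those of another gene in that annotation. The deposited identifiers are largely of another annotation (Ensembl BALB/cJ), so the lengths over which reads were counted may differ.

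The ligand was set against its receptor as a ratio of reads; within a library this ratio does not depend on the scaling. Il1b had 13.1 reads per 100 of Il1r1 in ischemia against 0.441 in sham by the group means, a difference of 4.90 on the log2 scale (29.8-fold). The mean log2 ratio within libraries, which the permutation test compares, differed by 5.58. In the most even separations the libraries gave 13.1, 24.6 and 5.24 reads per 100 in ischemia against 1.31, 0.103 and 0.115 in sham. Every ischemia library was above every sham library in all 6 combinations of separations. The two-sided exact permutation test gave p = 0.10, the smallest possible, and a Benjamini-Hochberg adjusted p = 0.30 over 3 ratios. Il1b was called higher and Il1r1 lower, so a higher ratio follows from these calls and is no separate finding. The log2 difference was 6.92 without sham library A and 4.31 without sham library B. Transcript lengths differ, so these are ratios of reads and not of molecules.

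Set against the feedback inhibitor, the ligand's ratio overlapped between the groups. Il1b had 10.4 reads per 100 of Socs3 in ischemia against 4.06 in sham by the group means, a log2 difference of 1.35, or 1.95 as the mean within libraries. The libraries gave 11.4, 14.04 and 5.07 reads per 100 in ischemia in the most even separation, against 7.78, 0.990 and 1.82 in sham, and the groups overlapped at ischemia library C and sham library A. The other separation overlapped too (two-sided exact permutation p = 0.20 in both, adjusted p = 0.30). Without sham library A the log2 difference was 3.03. The 9 sham reads of Il1b set the precision here.

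Between the calprotectin subunits, S100a9 had 83.9 reads per 100 of S100a8 in ischemia against 44.3 in sham by the group means, a log2 difference of 0.92, or 1.16 as the mean within libraries. The ratio within libraries was 84.6, 117 and 57.4 per 100 in ischemia and 6.25, 44.4 and 183 in sham. The sham range enclosed the ischemia range, and the difference was within the spread of the libraries (two-sided exact permutation p = 0.60, adjusted p = 0.60). The log2 difference was -0.21 without sham library A and 2.22 without sham library C.

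**Figure D3:**
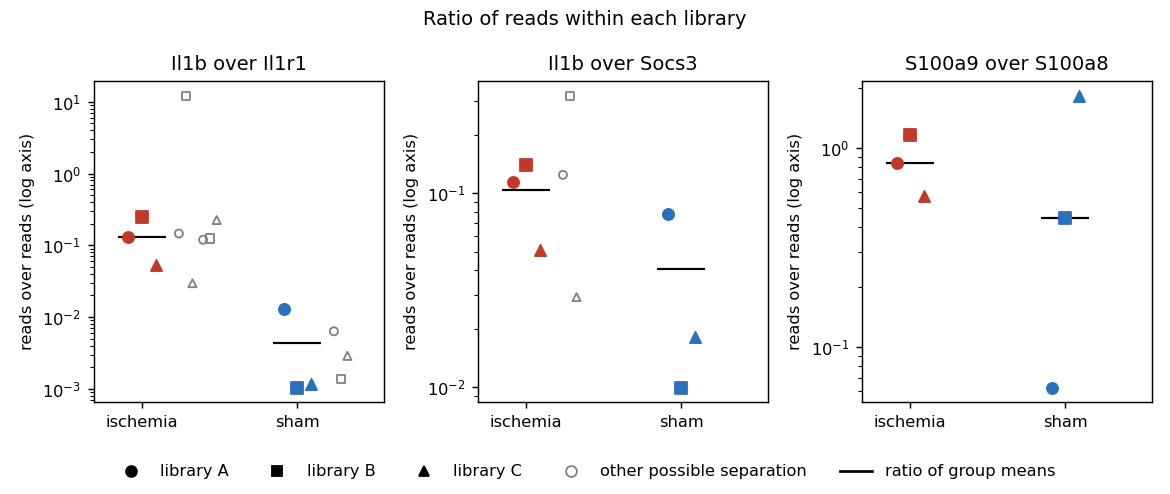
Ratio of reads within each library (log axis) for Il1b over Il1r1, Il1b over Socs3 and S100a9 over S100a8, ischemia left of sham; symbols are libraries as lettered, lines are ratios of the group means, and small open symbols use other separations. The groups are apart for Il1b over Il1r1 and overlap for the other ratios.

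The other genes of these pathways were taken from 17 lists with 259 genes, of which 25 were called, 23 higher and 2 lower. Leaving out the 6 genes themselves, 19 of 253 (7.51%) were called, beside 2.25% of all genes tested. The lists were chosen with earlier results of these data known, so the higher share is no finding. Among 11 symbols listed for interleukin-1 family ligands and antagonists Il1b was the 1 called gene. Among 11 listed for receptors of the family, with the binding protein gene Il18bp, Il1r1 was the 1 called gene. A listed symbol that was not among the genes tested could not be called. Of 18 genes of signal transduction below these receptors, Peli1, an E3 ubiquitin ligase of the pathway, rose 2.90-fold, with an adjusted p = 0.0164 in the authors' deposited table. Of 13 inflammasome and processing genes 0 were called. A gene that is not listed has no value in the table, and its level and change are not known here.

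The CD14 and Toll-like receptor list had 12 genes, of which 4 rose (median 3.03-fold) and 0 fell. Cd14 itself is among them, and without it 3 of 11 rose, with a median of 2.36-fold. Tlr2, which recognises bacterial lipoproteins, rose 2.36-fold (adjusted p = 0.0394), and Cd180, a relative of the Toll-like receptors, rose 3.90-fold (adjusted p = 0.000369), both by the authors' deposited table. Ly86, whose product pairs with CD180, rose 1.53-fold with an adjusted p = 0.0367 by the authors' deposited table. Tlr2 held 63.4, 94.5 and 93.8 normalised reads in the ischemia libraries and 40.03, 32.5 and 34.2 in the sham libraries, with no overlap. Ly86 had 2 possible separations in ischemia, and its groups were apart in the most even and overlapped in the other. Of 16 NF-kappaB subunits and inhibitors, 3 rose and 0 fell by the authors' deposited table: the subunit genes Rel (2.23-fold, adjusted p = 1.63e-06) and Nfkb2 (1.91-fold) and the nuclear inhibitor gene Nfkbid (1.98-fold). Rel had 8 possible separations in ischemia, and its groups were apart in the most even but overlapped in most of the others.

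Socs3 was the 1 called gene of 8 in its family. Of 26 genes of gp130 cytokines, receptors and STAT3 signalling 4 rose (median 4.96-fold) and 0 fell. They were the cytokine gene Lif (2.93-fold), the transcription factor gene Stat3 (1.58-fold), and the STAT3 targets Pim1 (18.5-fold), a kinase, and Junb (8.42-fold), an AP-1 subunit, all by the authors' deposited table, whose adjusted p lay between 4.04e-26 and 0.00249. Lif held 142, 114 and 110 normalised reads in the ischemia libraries and 46.9, 39.7 and 38.3 in the sham libraries. Of 26 other cytokines and genes known to be induced by interleukin-1, 5 rose and 0 fell, all chemokines. By the authors' deposited table they were Ccl2 (10.8-fold), Ccl3 (20.8-fold), Ccl7 (102-fold), Cxcl1 (7.58-fold) and Cxcl2, which is listed at 0 in sham and at 31.8 normalised reads in ischemia. Ccl3 held 51.4, 285 and 168 normalised reads in the ischemia libraries and 5.72, 13.5 and 4.9997 in the sham libraries, with no overlap. The fold of Ccl7 rests on 259 reads in ischemia and 3 in sham, a ratio of 94.1 per unit of size factor with an exact 95% interval of 31.8 to 459 for counting error.

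**Figure D4:**
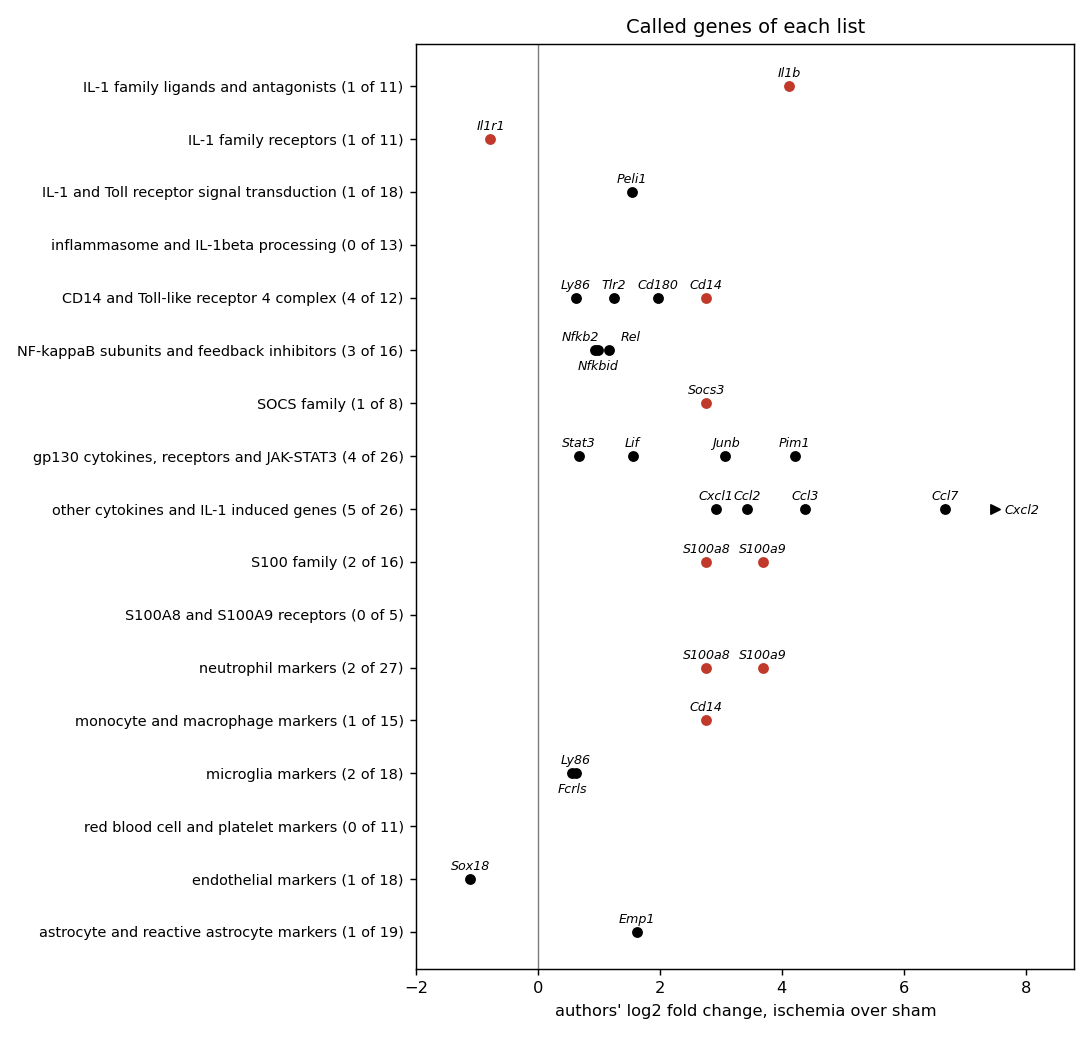
The authors' log2 fold change of ischemia over sham (horizontal) for each called gene of the 17 lists, with the number called of the number listed; red points are the 6 genes, black points other genes, and the arrowhead marks Cxcl2, which has no finite value. The called genes lie right of 0 except Il1r1 at -0.78 and Sox18 at -1.11.

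Of 16 genes of the S100 family S100a8 and S100a9 were the 2 called, and of 5 genes for receptors of their products 0 were called. Markers of cells that could carry these transcripts were counted beside them. Of 27 neutrophil markers S100a8 and S100a9 were called and 25 were not. Summed, S100a8 and S100a9 held 57.4, 175 and 159 normalised reads in the ischemia libraries and 19.4, 11.7 and 14.2 in the sham libraries. Of 15 monocyte and macrophage markers Cd14 was called, of 18 microglia markers Fcrls and Ly86 rose (by the authors' deposited table, 1.47-fold and 1.53-fold), and of 11 red blood cell and platelet markers 0 were called. Sox18, a transcription factor gene of endothelial cells, was 2.16-fold lower with an adjusted p = 0.00347 by the authors' deposited table, and the 1 called gene of 18 endothelial markers. Of 19 astrocyte markers Emp1, a membrane protein gene of reactive astrocytes, rose 3.07-fold by the authors' deposited table. Emp1 had 2 possible separations in ischemia, and its groups were apart in the most even and overlapped in the other. The part of cell numbers in the rises of the 6 genes was not tested.

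Over the 13 list genes called higher with 1 separation in both groups, the highest ischemia library was B for 10, A for Nfkb2 and Lif, and C for S100a8. The lowest was A for 8, C for 4 and B for Nfkb2. These counts were not made over all genes called higher, so whether they are particular to these genes was not tested. Il1b was among the 4 lowest in library C, at 0.458 times its ischemia mean, whereas S100a8 and S100a9 were lowest in library A, at 0.437 and 0.441 times their means. All 13 were higher in each ischemia library than in any sham library. They were kept because they were called higher, as 1.47% of all genes tested were, so this is no separate finding. The share with groups apart over all genes called higher was not computed.

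**Figure D5:**
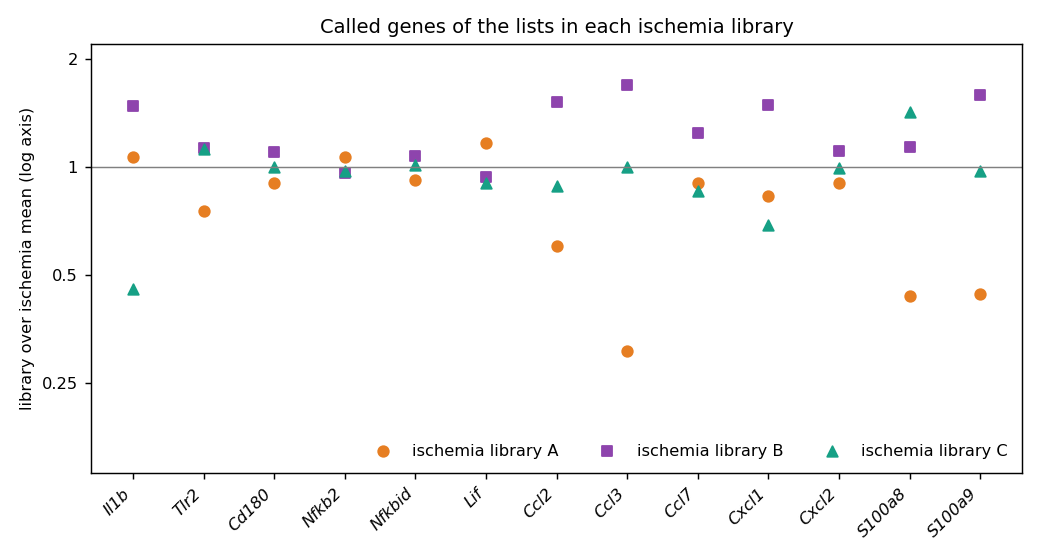
Normalised reads of each ischemia library divided by the ischemia mean of the gene (log axis) for the 13 called list genes with 1 separation in both groups. Library B (squares) is the highest for 10 of them, S100a8 is highest in library C (triangles), and S100a8 and S100a9 are lowest in library A (circles).

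Among the called genes nearest to each of the 6 in both group means, by distance in log2(mean + 1) over the 2 groups, were S100a9 (0.42) and Rgs1 (0.66) for Il1b, and Rgs1 (0.28) and Il1b (0.42) for S100a9. For S100a8 they were Bdkrb2 (0.23) and Kdm6bos (0.38), for Cd14 Gem (0.28) and Lrrc32 (0.50), for Socs3 Lrrc32 (0.46), and for Il1r1 Dnajc28 (0.11) and Pex26 (0.12). The distances are descriptions of levels over 2 group means.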

How the data were processed

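RNA of 6 samples labelled as hippocampus was sequenced after Trizol extraction. The submitters' processing notes name Bowtie 0.12.2 and mm8 without their roles. Identifiers in the deposited table are largely of the Ensembl BALB/cJ annotation, while the mice are labelled C57BL/6. The counter, strand, normalisation and test: not given in the sources used here.

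Read signal as deposited by the authors is a mean of normalised read counts over 1 group, per the file headers and values. The deposited log2 fold change and p-values are the authors' own and were not tested again, since 0 of its columns hold a single sample; the fit foreseen with limma or edgeR could therefore not be made. The number of tested genes was the one whose Benjamini-Hochberg adjustment returned the deposited adjusted p-values in most rows (636 of 637).

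To split each group mean into whole reads by library, lattice reduction of the 12 lowest means gave 3 steps a group, each step being 1 divided by 3 times a size factor, that turned the 60 lowest means into whole reads. A separation had to return the mean within 0.6 of its last digit plus the error of the steps. Of means up to 450, 145 of 172 in ischemia and 190 of 195 in sham had 1 separation and 0 lacked one. On simulated data (4 tables of 637 genes), 715 of 715 means with 1 separation were correct. Only means up to 450 were scored. The choice of the most even among several separations, made for Il1r1, Cd14 and Socs3, was not scored. Libraries cannot be linked to replicate numbers.

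Exact permutation tests were two-sided, on log2(value + 1) or on log2 ratios. Intervals are exact Poisson or binomial and cover counting error only. The 6 genes and the 17 lists were chosen with earlier results of these data known. Named genes are the 6, every called list gene, and the 2 called genes nearest to each of the 6, of which 1 is not reported here. Promoters of 5 of the 6 genes (all but Cd14) were matched in RefSeq GRCm38.p6; lengths are from GENCODE M21. Tools were Python 3.11.15, numpy 2.4.6, scipy 1.17.1, sympy 1.14.0, pandas 2.3.3 and matplotlib 3.10.9.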

Additional observations from a re-analysis of the deposited data

How the results depend on the processing

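The direction of each of the 6 genes held under every alternative run: pseudocounts of 1 and 10, no scaling of libraries (largest shift 0.23 on the log2 scale) and the omission of single libraries. Calls could only be removed. Of the 5 genes higher and 1 lower in the authors' deposited table, an adjusted p of 0.01 left 2 (Il1b and Socs3) and 0, Bonferroni correction 1 (Socs3) and 0, and an absolute log2 fold change of 1 left 5 and 0. Of the 23 higher and 2 lower list genes, an adjusted p of 0.01 left 15 and 1, and an absolute log2 fold change of 1 left 18 and 1. A pseudocount of 10 gave log2 fold changes of 2.32 for Il1b, 1.99 for S100a8 and 2.25 for S100a9. Omitting a library gave log2 fold changes of 3.66 to 6.02 for Il1b, -1.82 to -0.14 for Il1r1, 1.85 to 3.28 for Cd14, 2.21 to 3.09 for Socs3, 2.42 to 3.44 for S100a8 and 3.18 to 4.65 for S100a9, with every possible separation counted. It gave 2.59 to 3.10 for the median of the 6 genes. For the log2 differences of ratios, in the most even separations, it gave 4.31 to 6.92 for Il1b over Il1r1, 0.80 to 3.03 for Il1b over Socs3 and -0.21 to 2.22 for S100a9 over S100a8, whose direction turned without sham library A. The use of separations other than the most even, and of mean log2 ratios within libraries (5.58, 1.95 and 1.16 for the same ratios), was chosen after the data were seen. No paired analysis was possible because the deposited columns are group means and carry no replicate numbers. The few sham reads of Il1b, S100a9 and S100a8 limit their folds.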

Other observations

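Of the genes nearest in level, Bdkrb2, a bradykinin receptor gene, had 39, 36 and 116 reads in the ischemia libraries and 14, 9 and 6 in the sham libraries, beside 26, 71 and 122 and 16, 9 and 6 for S100a8. Rgs1, a regulator of G protein signalling found in leukocytes and microglia, had 35, 44 and 85 reads in ischemia and 8, 6 and 3 in sham. Kdm6bos, an antisense transcript, had 77, 26 and 69 reads in ischemia and 10, 7 and 9 in sham; no source used here says if counting was by strand, and its reads cannot be told apart from those of its partner gene. Bdkrb2, Rgs1 and S100a8 were all highest in ischemia library C and in sham library A. Kdm6bos was also highest in sham library A, but in ischemia it was highest in library A. S100a9 was highest in ischemia library B and in sham library C. The sham orders rest on few reads, and shared orders were not tested.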
